A study of Mus musculus with 12 samples.

Results

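The interaction of fat depot with cell fraction was examined over all 12 arrays of the series, 3 in each of 4 groups. For every probe set it was computed as the subcutaneous minus intraabdominal difference in adipocytes, minus the same depot difference in stromo-vascular cells, on a log2 scale. It was formed from 12422 probe sets, which were all of the 12488 on the array except the controls, and tested for the 8695 with enough signal, which represent 6436 of the 8251 genes on the array. The groups were subcutaneous adipocytes, intraabdominal adipocytes, subcutaneous stromo-vascular cells and intraabdominal stromo-vascular cells. All came from male C57BL/6 mice aged 42 to 49 days, the subcutaneous fat from the flank and the intraabdominal fat from around the epididymis. Tissue of 10 mice was pooled by depot and digested with collagenase. The floating adipocytes went straight to RNA extraction, whereas the pelleted stromo-vascular cells lost their red cells by lysis and were plated for 16 h in serum before extraction. Cell fraction and culture therefore cannot be told apart. Whether the 3 arrays of a group came from separate pools was not stated, so p-values measure only the spread between these samples, which may be technical.

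White fat depots differ in their developmental origin and in the mix of cells they hold. Adipocytes store triglyceride and secrete adipokines, while the stromo-vascular fraction contains preadipocytes and other fibroblasts, endothelial cells, smooth muscle cells and pericytes, immune cells and, in visceral fat, mesothelial cells of the peritoneal lining. A depot difference can be shared by both fractions, present in 1 of them, or point in opposite directions. The interaction separates these cases. It is also equal to the adipocyte minus stromo-vascular difference in subcutaneous fat, less that difference in intraabdominal fat. A positive value means that the subcutaneous over intraabdominal ratio was higher in adipocytes than in stromo-vascular cells.

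The adipocyte markers fitted the labelled fractions. The summed signal of 18 adipocyte markers was 1194755 to 1364747 in subcutaneous adipocytes, 1196594 to 1408334 in intraabdominal adipocytes, 51494 to 57992 in subcutaneous stromo-vascular cells and 30280 to 36816 in intraabdominal stromo-vascular cells. The median signal of an array was 476 to 558, 423 to 484, 507 to 533 and 487 to 512 in the same 4 groups. Lists of other cells did not all follow the labels. Endothelial markers summed 27332 to 46743 in subcutaneous and 33952 to 38948 in intraabdominal adipocytes. They summed 12846 to 14669 and 17163 to 24083 in the stromo-vascular cells. The summed signals of MHC class II and of erythroid and plasma cell genes were also higher in adipocytes. Those of smooth muscle and lymphocyte markers were higher in stromo-vascular cells. The lymphocyte list holds Thy1, which is also listed as a fibroblast marker, and its sum was not split by member. RNA quality differed between depots among adipocytes. The 3' to 5' signal ratio of the actin control probe sets, which rises as RNA is degraded or labelled short, was 2.85 ± 0.43 in subcutaneous adipocytes and 2.04 ± 0.29 in intraabdominal adipocytes, with standard deviations over 3 arrays. The stromo-vascular values were 1.22 ± 0.018 (SD, n = 3) for subcutaneous and 1.17 ± 0.054 (SD, n = 3) for intraabdominal fat. With this ratio as a covariate the median standard error of the adipocyte depot difference, over the 63 named genes where it was called, was 0.32, against 0.20 without it. The call was lost for 42 of the 63. In 17 of those 42 the estimate was as large with the covariate as without it. The ratio was 2.35 to 3.1 in subcutaneous and 1.71 to 2.24 in intraabdominal adipocytes, without overlap. RNA quality and depot therefore cannot be told apart among adipocytes, and estimates under the covariate neither clear nor discount a gene. Below, a named gene that loses a call this way is given with its estimate under the covariate; genes outside the naming rule were not followed through it singly. In bulk RNA, fewer cells of a type and less RNA per cell cannot be told apart, which applies to every gene described here.

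The depot difference depended on the fraction for 733 of 8695 probe sets tested (8.43%), by limma with Benjamini-Hochberg adjustment at an adjusted p under 0.05. The called interaction was positive for 339 (3.9% of those tested) and negative for 394 (4.53% of those tested), and 1807 probe sets had an unadjusted p under 0.05. With each array centred on its own median the numbers were 229 positive and 466 negative. The median adipocyte depot difference over all probe sets was then -0.15, against 0.07 as deposited, and the median interaction -0.13, against 0.03. The called interactions had a median size of 1.35 on the log2 scale and none was under 0.48. The median standard error was 0.34 for an interaction and 0.24 for a depot difference within 1 fraction. Next to the threshold lay Psph and Cap1, both inside it with an adjusted p of 0.0499, and Snx9 and Eif1a, outside it at 0.0501 and 0.0502. Over all probe sets the depot differences of the fractions had a Pearson correlation of 0.148 and a Spearman correlation of 0.19, given here as a description over probe sets that share 12 arrays.

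Collapsed to the brightest probe set of each gene, 586 of 6436 genes (9.11%) were called for the interaction, 270 positive (4.2%) and 316 negative (4.91%). They were sorted by what each fraction showed. In 56 genes both depot differences were called with opposite signs, and these are termed reversed. In 104 genes the adipocytes alone had a called depot difference and in 279 the stromo-vascular cells alone did, where the 95% interval of the other fraction had to lie within 2-fold as well as its test failing. In 20 genes both fractions differed in the same direction by unequal amounts. The remaining 127 genes were unresolved, because neither depot difference was called (50 genes) or because the other fraction's interval reached beyond 2-fold (21 with the adipocyte difference called and 56 with the stromo-vascular difference called). The depot difference itself was called for 8.3% of genes in adipocytes (3.67% higher and 4.63% lower in subcutaneous cells) and for 13.9% in stromo-vascular cells (6.91% higher and 6.96% lower). Over probe sets these shares were 8.13% in adipocytes and 12.9% in stromo-vascular cells.

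A depot difference that passed the test in 1 fraction and failed it in the other often did not amount to a difference between the fractions. Of 479 probe sets called in adipocytes and not in stromo-vascular cells, 162 (33.8%) were called for the interaction. Of 897 called in stromo-vascular cells and not in adipocytes, 412 (45.9%) were. Both depot differences were called for 228 probe sets, and in 66 of these (28.9%) they pointed in opposite directions. All 66 were called for the interaction, which nearly follows from the rule, since opposite differences add up in it. Of the 66, 21 had subcutaneous higher in adipocytes and 45 had it lower. After median centring there were also 66 reversed probe sets, now 9 and 57, of which 44 were among the original 66.

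**Figure D1:**
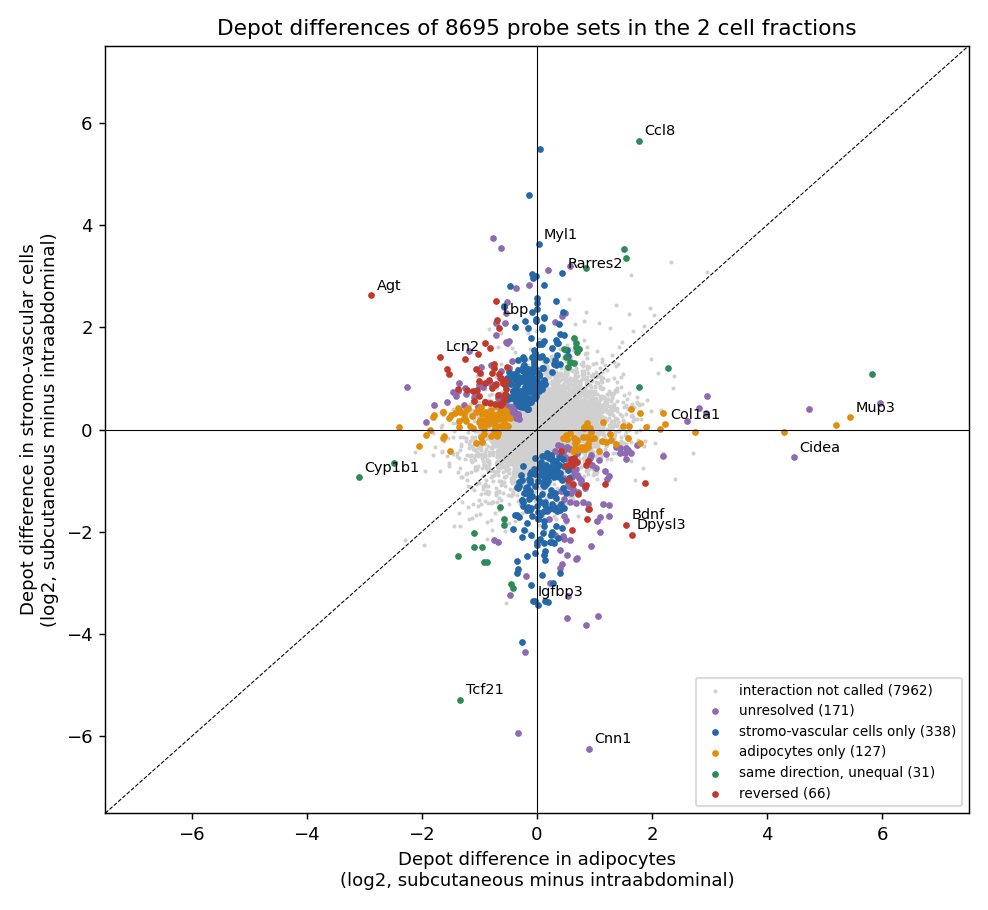
Each point is 1 of 8695 probe sets, with the log2 subcutaneous minus intraabdominal difference in adipocytes on the horizontal axis and that in stromo-vascular cells on the vertical axis, coloured by class. The reversed probe sets lie at the upper left and the lower right, with Agt farthest to the upper left at -2.88 and 2.62, and the diagonal marks equal depot differences.

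The reversed class counts depended on single arrays. Without intraabdominal adipocyte replicate 1 the 66 reversed probe sets became 42, and without intraabdominal adipocyte replicate 2 they became 34. Leaving out subcutaneous stromo-vascular replicate 2 or 3 gave 40 and 42, and leaving out intraabdominal stromo-vascular replicate 2 gave 43. With the actin ratio as a covariate 403 probe sets were called for the interaction, 352 of them among the original 733, and 10 were reversed. In adipocytes 97 probe sets were then called for the depot difference, against 707 without the covariate, and in stromo-vascular cells 1144, against 1125.

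Angiotensinogen (Agt), the precursor of the angiotensin peptides that fat secretes alongside liver, was the clearest reversal. It read 2245, 2360 and 1952 in subcutaneous adipocytes, against 15473, 18882 and 14663 in intraabdominal adipocytes. In stromo-vascular cells the order was turned: 721, 817 and 724 in subcutaneous cells, against 85.2, 86.1 and 94.8 in intraabdominal cells. The arrays of the depots did not overlap in either fraction. The fitted difference was -2.88 ± 0.16 in adipocytes (7.34-fold lower in subcutaneous) and 2.62 ± 0.16 in stromo-vascular cells (6.15-fold higher), each with its standard error. The interaction was -5.50 ± 0.22 (adjusted p = 4.23e-09), the smallest adjusted p of the reversed genes. Put as fraction differences, Agt was enriched in adipocytes in both depots, by a wide margin in intraabdominal fat and by a narrow one in subcutaneous fat.

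Adm, Ramp2 and Enpep were also reversed in the same sense, lower in subcutaneous adipocytes and higher in subcutaneous stromo-vascular cells. Adrenomedullin (Adm), a vasodilator peptide, read 6724, 4834 and 5733 in subcutaneous adipocytes, against 10539, 9354 and 8945 in intraabdominal adipocytes. In stromo-vascular cells it read 57059, 55956 and 62859 in subcutaneous, against 20609, 26457 and 25307 in intraabdominal cells. The groups were separate in both fractions, and the interaction was -2.03 ± 0.19 (adjusted p = 1.26e-05). Ramp2, the partner protein that makes the calcitonin receptor-like receptor an adrenomedullin receptor, had depot differences of -0.82 and 1.58 (interaction -2.40, adjusted p = 6.81e-05). Enpep, the aminopeptidase that trims angiotensin II, had depot differences of -1.21 and 0.77. Its mean signal was 2916 in subcutaneous and 6763 in intraabdominal adipocytes. In the stromo-vascular cells it was 1147 for subcutaneous and 670.2 for intraabdominal fat. Of all genes, 4.2% were called positive for the interaction and 4.91% negative. Among the 10 tested genes of the renin-angiotensin and vasoactive list, which did not hold Ramp2 or Enpep, 1 was called positive and 2 negative. The positive one was endothelin 1 (Edn1, interaction 1.62), with its depot difference in stromo-vascular cells only. Its interaction call was lost in 11 of 23 other settings, 7 of them omissions of a single array, and was 1.47 with the actin covariate (adjusted p = 0.197). With that covariate the adipocyte differences of Adm (-0.60, adjusted p = 0.261) and Ramp2 (-0.86, adjusted p = 0.27) were no longer called, while that of Agt was.

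Lcn2, Lbp and Il1r1 were again lower in subcutaneous adipocytes and higher in subcutaneous stromo-vascular cells. On the gene lists, 1 of 19 complement and acute phase genes and 1 of 26 cytokines and chemokines was reversed. Over all genes tested 56 of 6436 were. Lipocalin 2 (Lcn2), which binds bacterial siderophores, read 146, 213 and 363 in subcutaneous adipocytes, against 611, 1174 and 757 in intraabdominal adipocytes. It read 8941, 9440 and 8526 in subcutaneous stromo-vascular cells, against 2810, 4231 and 3038 in intraabdominal ones. Neither pair of groups overlapped, and the interaction was -3.11 ± 0.39 (adjusted p = 0.000141). A dimmer probe set of Lcn2 did not show this, with an interaction of 0.42 (adjusted p = 0.602). Lipopolysaccharide-binding protein (Lbp) read 9337, 10756 and 7049 in subcutaneous adipocytes, against 13034, 18707 and 12118 in intraabdominal adipocytes, a 1.61-fold difference. Among stromo-vascular cells the arrays read 15120, 15280 and 17107 in subcutaneous, against 3626, 3605 and 3402 in intraabdominal cells, 4.42-fold higher. The larger share of its interaction of -2.83 ± 0.24 (adjusted p = 3.91e-06) thus lay in the stromo-vascular cells.

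Il1r1, the signalling receptor of interleukin 1, read 1224, 1167 and 907 in subcutaneous adipocytes, against 1748, 4112 and 2589 in intraabdominal adipocytes. The stromo-vascular values were 4765, 4579 and 4666 in subcutaneous, against 1805, 1873 and 1672 in intraabdominal cells. The depots were separate in both fractions and differed by similar amounts in opposite directions (-1.25 and 1.37, interaction adjusted p = 0.000143). Further inflammation-related genes of the class were not picked by the naming rule and are given as values: serum amyloid A2 (Saa2) at -1.38 and 0.79, calgranulin A (S100a8) at -1.11 and 0.76, prostaglandin E synthase (Ptges) at -0.63 and 1.00, and pentraxin 3 (Ptx3) at -0.58 and 0.91, each in adipocytes and then stromo-vascular cells. Saa2 belongs to a family of similar sequences, so its probe set may read relatives. With the actin covariate the adipocyte difference of Lcn2 was -1.42 and not called (adjusted p = 0.177), whereas those of Lbp and Il1r1 were. Without intraabdominal adipocyte replicate 2 that of Lbp had an adjusted p of 0.114.

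The promoters of Agt and Lcn2 are shown because these genes had the largest interactions of the reversed genes that were lower in subcutaneous adipocytes. They span 250 bases before to 50 after the RefSeq start (GRCm38.p6). Capitals mark the match to TTGCNNAA, a core bound by C/EBP factors, searched on both strands. Gene and motif were chosen after the values were seen.
Agt promoter, chr8:124569657-124569956, minus strand: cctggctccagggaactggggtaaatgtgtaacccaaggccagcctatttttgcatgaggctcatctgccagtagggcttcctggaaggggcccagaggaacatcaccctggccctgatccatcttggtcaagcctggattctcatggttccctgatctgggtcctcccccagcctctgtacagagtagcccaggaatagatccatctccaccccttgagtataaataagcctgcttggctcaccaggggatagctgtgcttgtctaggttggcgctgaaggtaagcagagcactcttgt
Lcn2 promoter, chr2:32387690-32387989, minus strand: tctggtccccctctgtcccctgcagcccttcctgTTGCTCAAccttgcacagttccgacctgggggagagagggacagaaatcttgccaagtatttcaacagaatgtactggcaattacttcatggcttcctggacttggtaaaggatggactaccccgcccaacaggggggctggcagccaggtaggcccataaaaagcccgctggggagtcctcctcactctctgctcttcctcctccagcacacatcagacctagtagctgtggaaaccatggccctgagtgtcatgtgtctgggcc
The Lcn2 window holds 1 match, which starts 216 bases upstream, and the Agt window none. The same letters occur in 7 of the 44 reversed genes that have a promoter entry (15.9%) and in 10.8% of the 5156 tested genes with one. A match is a description of these letters.

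The rest of the genes lower in subcutaneous adipocytes and higher in subcutaneous stromo-vascular cells had varied roles. Cysteine dioxygenase (Cdo1), which commits cysteine to taurine synthesis, read 40293, 50818 and 46082 in subcutaneous adipocytes, against 69269, 77339 and 68878 in intraabdominal adipocytes. It read 2241, 2767 and 2746 in subcutaneous stromo-vascular cells, against 685, 541 and 645 in intraabdominal ones. It was thus abundant in the adipocytes of both depots, and the reversal was 1.58-fold in adipocytes against 3.96-fold in stromo-vascular cells (interaction -2.64 ± 0.19, adjusted p = 1.02e-06). Fosl1, a subunit of the AP-1 transcription factor, read 472, 373 and 274 in subcutaneous adipocytes, against 1243, 1504 and 810.3 in intraabdominal adipocytes. In stromo-vascular cells it read 3548, 3502 and 3063 in subcutaneous, against 1505, 1345 and 1553 in intraabdominal cells. The depot differences of -1.55 and 1.18 gave an interaction of -2.73 ± 0.32 (adjusted p = 8.37e-05).

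Acta1, the actin of skeletal muscle, read 815, 934 and 1006 in subcutaneous adipocytes, against 3039, 2315 and 2790 in intraabdominal adipocytes. Its stromo-vascular values were 3290, 3129 and 2891 in subcutaneous, against 1344, 1348 and 1618 in intraabdominal cells (interaction -2.61 ± 0.22, adjusted p = 3.62e-06). Of 16 tested skeletal muscle markers, 2 were called negative for the interaction and 0 positive, beside 4.91% and 4.2% of all genes. In stromo-vascular cells 3 were higher and 2 lower in subcutaneous cells, beside 6.91% and 6.96% of all genes, with a median of 0.33. The summed signal of the list was 19081 to 21611 and 17458 to 21389 in subcutaneous and intraabdominal adipocytes, and 17174 to 17977 and 11617 to 13536 in the stromo-vascular cells, higher in subcutaneous stromo-vascular cells without overlap. The other called member was the myosin light chain Myl1, with a depot difference of 3.63 in stromo-vascular cells only. Apcdd1, an inhibitor of Wnt signalling, had depot differences of -0.90 and 1.68 (interaction -2.59, adjusted p = 3.43e-06), and the Wnt receptor Fzd4 had -0.72 and 0.90 (-1.62, adjusted p = 0.000759). With the actin covariate the adipocyte differences of Fosl1 and Acta1 stayed called. Those of Cdo1 (-0.75, adjusted p = 0.13), Apcdd1 (-1.03, adjusted p = 0.0709) and Fzd4 (-0.96, adjusted p = 0.136) did not, though each estimate was larger than without it. A dimmer Fzd4 probe set had an interaction of -0.58 (adjusted p = 0.664).

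Collagen VI, a beaded-filament collagen of the adipocyte surroundings, was reversed in 2 of its 3 chains on the array. Col6a1 read 8498, 8431 and 9074 in subcutaneous adipocytes, against 13959, 16602 and 13401 in intraabdominal adipocytes. Stromo-vascular signals were 16440, 14812 and 15621 in subcutaneous, against 7202, 6744 and 6373 in intraabdominal cells. Col6a2 had nearly the same depot differences, -0.83 in adipocytes and 0.97 in stromo-vascular cells, where Col6a1 had -0.75 and 1.20. The interactions were -1.95 (adjusted p = 3.11e-06) and -1.80 (2.64e-05). The third chain, Col6a3, showed its difference in stromo-vascular cells alone (0.03 and 1.67, interaction -1.64, adjusted p = 0.000229). With the actin covariate the adipocyte differences of Col6a1 (-0.76, adjusted p = 0.0692) and Col6a2 (-0.83, adjusted p = 0.1) were as large and were not called. A dimmer Col6a1 probe set had an adipocyte difference of -0.44 that was not called (adjusted p = 0.131) and a stromo-vascular one of 0.90.

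**Figure D2:**
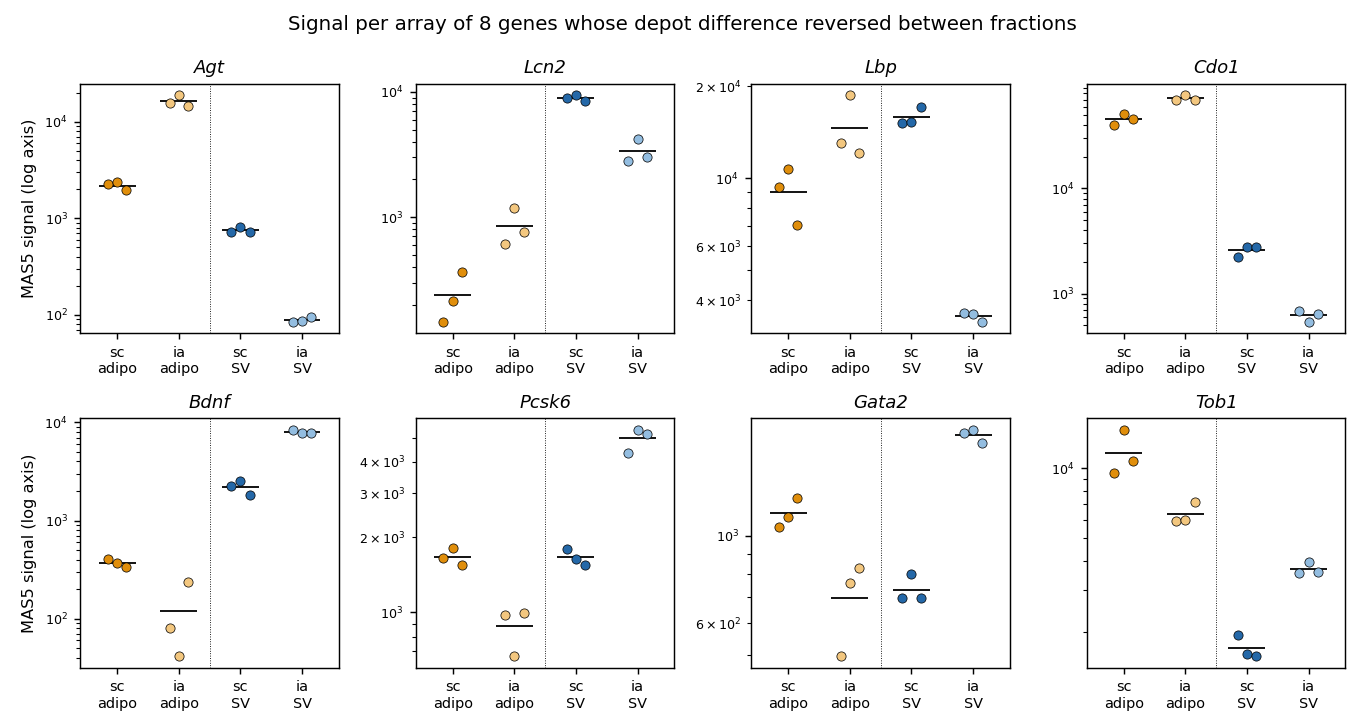
Each panel shows the MAS5 signal of 1 reversed gene on a log axis, 1 point per array with a bar at the mean of the 3 arrays, for subcutaneous then intraabdominal adipocytes left of the dotted line and subcutaneous then intraabdominal stromo-vascular cells right of it. In every panel the 3 points of one depot lie above those of the other on both sides of the line, with the order turned between the sides.

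The 16 genes reversed the other way were higher in subcutaneous adipocytes and lower in subcutaneous stromo-vascular cells. Brain-derived neurotrophic factor (Bdnf) read 409, 367 and 335 in subcutaneous adipocytes, against 81.0, 41.1 and 236 in intraabdominal adipocytes. It read 2273, 2514 and 1808 in subcutaneous stromo-vascular cells, against 8434, 7846 and 7733 in intraabdominal ones. The groups were separate, though the intraabdominal adipocyte arrays ranged widely, and the interaction was 3.41 ± 0.46 (adjusted p = 0.000279). Dpysl3, a protein of the neuronal growth cone, had a larger but noisier interaction of 3.70 ± 0.64 (adjusted p = 0.00205). It read 328, 498 and 151 in subcutaneous adipocytes, against 57.9, 60.4 and 84.8 in intraabdominal adipocytes. Its stromo-vascular values were 74.5, 79.2 and 260.3 in subcutaneous, against 707, 528 and 651 in intraabdominal cells, so that both low groups lay below the array median of 497. The adipocyte difference of Dpysl3 was close to the threshold (adjusted p = 0.0392) and was lost under 11 of the other settings, including the omission of 7 different arrays. Under the actin covariate it was 0.67 (adjusted p = 0.781), and the interaction was 2.84 (adjusted p = 0.0513).

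Among genes for cell contact and secretion, Pcsk6, a protease that activates growth factor precursors, read 1658, 1808 and 1546 in subcutaneous adipocytes, against 974, 667 and 999 in intraabdominal adipocytes. In stromo-vascular cells it read 1798, 1641 and 1544 in subcutaneous, against 4357, 5378 and 5168 in intraabdominal cells (interaction 2.47 ± 0.24, adjusted p = 1.35e-05). The subcutaneous arrays of the fractions were alike, and the intraabdominal ones lay on either side of them. N-cadherin (Cdh2) was dim in adipocytes, at 277, 273 and 152 in subcutaneous and 96.6, 48.1 and 96.0 in intraabdominal cells, and had an interaction of 2.24 (adjusted p = 0.0024). The scaffold protein Slc9a3r1 had depot differences of 0.61 in adipocytes and -1.96 in stromo-vascular cells (interaction 2.57, adjusted p = 1.32e-05). Folr2, a folate receptor of macrophages, had 0.85 and -1.08 (1.93, adjusted p = 0.00146). With the actin covariate the adipocyte call was lost for all 4 genes. The estimates were as large or larger for Pcsk6 (1.03, adjusted p = 0.105) and Folr2 (1.23, adjusted p = 0.129) and smaller for Cdh2 (0.90, adjusted p = 0.445) and Slc9a3r1 (0.23, adjusted p = 0.819). The call was also lost with median centring for Slc9a3r1 (adjusted p = 0.121) and Folr2 (0.0988). That of Slc9a3r1 was lost in most other settings, including the omission of each stromo-vascular array (adjusted p = 0.0546 to 0.0692). Without subcutaneous adipocyte replicate 1 that of Folr2 was lost too (0.107). The stromo-vascular call of Cdh2 was lost with the omission of each subcutaneous stromo-vascular array (0.0554 to 0.0796).

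The regulators in this direction were Tob1, an inhibitor of proliferation, and Gata2, a transcription factor known to hold back adipocyte differentiation. Tob1 read 9554, 14583 and 10689 in subcutaneous adipocytes, against 5967, 6024 and 7160 in intraabdominal adipocytes. Among stromo-vascular cells the arrays read 1938, 1612 and 1566 in subcutaneous, against 3546, 3966 and 3609 in intraabdominal cells (interaction 1.95 ± 0.22, adjusted p = 6.32e-05). The depots were separate in each fraction, and with the actin covariate the adipocyte call was lost for Tob1 (0.72, adjusted p = 0.232) and Bdnf (1.39, adjusted p = 0.296). Gata2 read 1056, 1114 and 1251 in subcutaneous adipocytes, against 495, 758 and 830.3 in intraabdominal adipocytes. It read 695, 800.2 and 694 in subcutaneous stromo-vascular cells, against 1822, 1859 and 1719 in intraabdominal ones (1.97, adjusted p = 0.000383). Its adipocyte difference had an adjusted p of 0.0401, 0.124 with median centring and 0.572 with the actin covariate, where it was 0.50 instead of 0.71. This call was lost in most other settings, including the omission of each stromo-vascular array (adjusted p = 0.0515 to 0.0591).

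Metabolic and cell cycle genes with this pattern had small differences in each fraction. Acaa2, a thiolase of mitochondrial fatty acid oxidation, read 83703, 80741 and 68233 in subcutaneous adipocytes, against 51328, 50522 and 49767 in intraabdominal adipocytes, and its depot difference in stromo-vascular cells was -0.69 (interaction 1.30, adjusted p = 0.000233). Malic enzyme (Me1), which supplies NADPH for lipogenesis, had 0.41 and -0.42 (0.83, adjusted p = 0.00352). The mitotic genes Cdc20 and Ccnb2 had 0.86 and -0.70, and 0.50 and -0.72. All of these adipocyte calls were lost with the actin covariate (estimates 0.33 to 0.53, adjusted p 0.323 to 0.487), and those of Acaa2, Ccnb2 and Me1 with median centring (0.0796 to 0.399). That of Ccnb2 was lost in most other settings, including the omission of each stromo-vascular array (adjusted p = 0.0527 to 0.0642). That of Me1 was lost with the omission of each intraabdominal adipocyte array (0.0579 to 0.112). Median centring also took the interaction call of Me1 (0.67, adjusted p = 0.0545). The stromo-vascular calls of Me1 and Cdc20 were lost without replicate 2 or 3 of either stromo-vascular group (adjusted p = 0.0539 to 0.108). The remaining genes of the direction, Suclg1, Socs2, Fstl1 and Cryab, had depot differences of 0.55 to 0.90 in adipocytes and -0.99 to -0.56 in stromo-vascular cells.

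Taking the 56 reversed genes as a class, the 3 arrays of one depot lay wholly above the other in both fractions for all 56. Separation was not part of the class rule, but both differences had been called in these same arrays, so it is no separate support. In the 40 genes lower in subcutaneous adipocytes, the adipocyte difference was 0.52 to 2.88 in size with a median of 0.80, and the stromo-vascular difference 0.48 to 2.62 with a median of 0.91. In the 16 genes higher in subcutaneous adipocytes these were 0.41 to 1.65 with a median of 0.78, and 0.42 to 2.05 in size with a median of 1.03. The difference was over 2-fold in both fractions for 10 of the 56, and 48 reached the array median signal in all 4 groups. Beyond those described, the class held the oxygen-regulated factor Hif1a (-0.89 and 0.55), the NAD-synthesising enzyme and adipokine Nampt (-0.62 and 0.48), the amine-oxidising enzyme Maoa (-0.78 and 1.11), the cytosolic isocitrate dehydrogenase Idh1 (-0.55 and 0.69) and the antioxidant enzyme Srxn1 (-1.02 and 1.47). These examples were picked after the values were seen.

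In 104 genes the depot difference was called in adipocytes alone, 40 higher and 64 lower in subcutaneous cells. In 93 of them both depots reached the array median signal in stromo-vascular cells, so that the gene was read there without a called depot difference. In 11 it was dim there. A smaller stromo-vascular difference was not excluded: the 95% interval was -0.62 to -0.07 for Hadhb and 0.09 to 0.75 for Srsf5. The class was sensitive to single arrays. Its 127 probe sets became 81 without intraabdominal adipocyte replicate 2, 204 without intraabdominal adipocyte replicate 3 and 75 without subcutaneous stromo-vascular replicate 1, and with the actin covariate 27.

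The fibrillar collagen I genes were the clearest of those read in both fractions. Col1a1 read 21116, 18044 and 22304 in subcutaneous adipocytes, against 4010, 5008 and 4112 in intraabdominal adipocytes, a 4.65-fold difference. In stromo-vascular cells it read 93448, 92056 and 104464 in subcutaneous, against 83964, 85096 and 100052 in intraabdominal cells, groups that overlapped. The stromo-vascular difference was 0.11 with a 95% interval of -0.16 to 0.38, and the interaction was 2.11 ± 0.18 (adjusted p = 3.91e-06). Col1a2, whose product forms the same triple helix, was 3.04-fold higher in subcutaneous adipocytes and differed by 0.07 (-0.23 to 0.38) in stromo-vascular cells (interaction 1.53, adjusted p = 0.000216). A dimmer Col1a2 probe set had an interaction of 0.08 (adjusted p = 0.908). Serpinf1, the secreted factor PEDF, had 1.49 in adipocytes and 0.07 in stromo-vascular cells, and a dimmer probe set of it was not called (interaction 1.12, adjusted p = 0.443). All 3 genes had several times more signal in stromo-vascular cells than in adipocytes of either depot. The summed signal of 18 preadipocyte and fibroblast markers was 128848 to 156978 in subcutaneous and 148314 to 185790 in intraabdominal adipocytes. By member, 2 of them were called higher and 0 lower in subcutaneous adipocytes, beside 3.67% and 4.63% of all genes. The median adipocyte difference of the list was 0.47, beside 0.05 over all genes.

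Osteoglycin (Ogn), a small proteoglycan of the matrix, showed the opposite direction. It read 1215, 1174 and 1378 in subcutaneous adipocytes, against 5450, 4060 and 3937 in intraabdominal adipocytes. Stromo-vascular signals were 4322, 4043 and 4146 in subcutaneous, against 3075, 3860 and 3339 in intraabdominal cells. The stromo-vascular difference of 0.29 (-0.03 to 0.60) was not called, and the interaction was -2.08 ± 0.21 (adjusted p = 1.92e-05). Errfi1, an inhibitor of the EGF receptor, read 5933, 4700 and 8750 in subcutaneous adipocytes, against 22948, 22434 and 14518 in intraabdominal adipocytes, and differed by 0.34 (-0.09 to 0.77) in stromo-vascular cells (interaction -1.98, adjusted p = 0.000464). The actin-bundling protein Lima1 had -1.63 and 0.34 (-1.97, adjusted p = 0.00539), and Nr4a1, an orphan nuclear receptor induced by acute stimuli, -1.63 and -0.17 (-1.46, adjusted p = 0.00153). With the actin covariate the adipocyte calls of Errfi1 (-1.06, adjusted p = 0.0949) and Lima1 (-1.67, adjusted p = 0.123) were lost.

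Genes of brown and beige adipocytes were higher in subcutaneous adipocytes and at low signal in stromo-vascular cells. Cox7a1, a subunit of cytochrome oxidase typical of brown fat and muscle, read 1180, 1555 and 3388 in subcutaneous adipocytes, against 330, 195 and 216 in intraabdominal adipocytes. In stromo-vascular cells it read 208, 154 and 40.8 in subcutaneous, against 122, 104 and 141 in intraabdominal cells, all below the array median. The interaction was 2.78 ± 0.63 (adjusted p = 0.0126). Cidea (interaction 5.01, adjusted p = 4.4e-05), Ucp1 (2.61, adjusted p = 0.00552) and Cox8b (2.30, adjusted p = 0.000258) were formally unresolved because the stromo-vascular interval reached beyond 2-fold. Cidea read 20451, 14668 and 17799 in subcutaneous adipocytes, against 552, 721 and 1073 in intraabdominal adipocytes, and at most 222 in any stromo-vascular array. A second Ucp1 probe set had 5.20 in adipocytes and 0.09 in stromo-vascular cells. Of the 5 tested genes of the brown fat list 4 were called positive (4.2% of all genes) and 0 negative, with a median interaction of 2.61. The summed signal of the list was 32335 to 50153 in subcutaneous and 3271 to 3961 in intraabdominal adipocytes, against 1270 to 1982 and 1028 to 1507 in the stromo-vascular cells. Ucp1, with the actin covariate, lost its interaction call (2.22, adjusted p = 0.0836) and its adipocyte call (2.48, adjusted p = 0.0692). A dimmer Cox8b probe set had an interaction of 1.29 that was not called (adjusted p = 0.0808).

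Among other genes dim in stromo-vascular cells, Mup3 had the largest interaction of the adipocytes-only class. It read 16175, 17422 and 23379 in subcutaneous adipocytes, against 344, 367 and 482 in intraabdominal adipocytes, and 30.4 to 143 over the 6 stromo-vascular arrays (interaction 5.20 ± 0.47, adjusted p = 7.15e-06). Major urinary proteins are encoded by many near-identical genes, so the signal may come from relatives of Mup3. Elovl6, the elongase that makes stearate from palmitate, was 4.58-fold higher in subcutaneous adipocytes, at 6274, 8139 and 8997 against 1675, 2066 and 1302 (interaction 1.88, adjusted p = 0.0081). Its stromo-vascular values were 129.5 to 358, and a second probe set had an interaction of 0.96 that was not called (adjusted p = 0.182). The interferon-induced GTPase Ifi47 was read in both fractions, at 653, 472 and 468 in subcutaneous and 131, 212 and 59.7 in intraabdominal adipocytes, with a stromo-vascular difference of -0.26 (interaction 2.06, adjusted p = 0.0076). Its interaction was 1.90 with the actin covariate (adjusted p = 0.0828) and its adipocyte difference 1.62 (adjusted p = 0.161), neither called.

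The largest class, 279 genes, had a called depot difference in stromo-vascular cells alone, 150 higher and 129 lower in subcutaneous cells. In adipocytes 244 of them were read in both depots and 35 were dim. Its 338 probe sets ranged from 241 to 348 as single arrays were left out, and were 118 with the actin covariate.

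**Figure D3:**
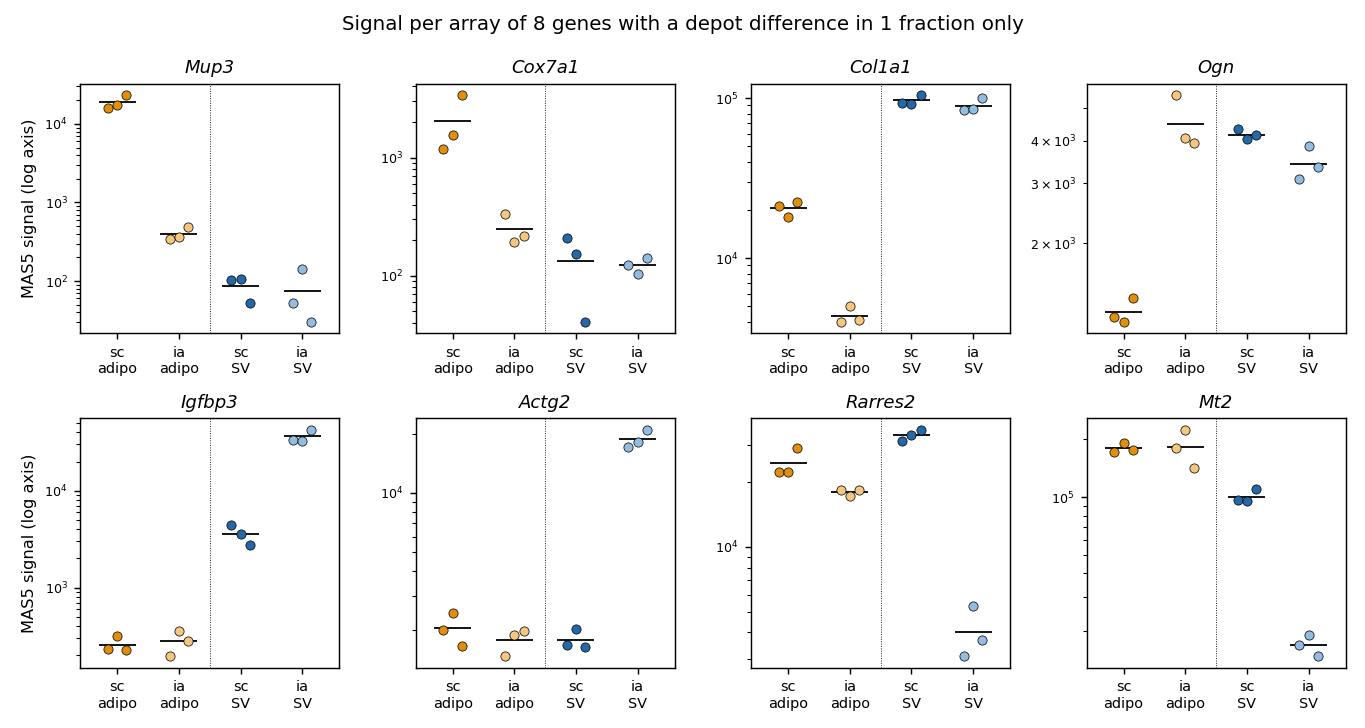
Each panel shows the MAS5 signal of 1 gene on a log axis, 1 point per array with a bar at the mean of the 3 arrays, in the order subcutaneous and intraabdominal adipocytes, then subcutaneous and intraabdominal stromo-vascular (SV) cells. The upper row (Mup3, Cox7a1, Col1a1, Ogn) separates the depots left of the dotted line, and the lower row (Igfbp3, Actg2, Rarres2, Mt2) right of it.

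Among stromo-vascular cells, those of subcutaneous fat had lower contractile genes of smooth muscle, while the adipocytes of the depots had no called difference in most of them. Actg2, the enteric smooth muscle actin, read 2017, 2465 and 1660 in subcutaneous adipocytes, against 1475, 1901 and 1976 in intraabdominal adipocytes. It read 1678, 2033 and 1643 in subcutaneous stromo-vascular cells, against 17144, 18134 and 20952 in intraabdominal ones. The adipocyte groups overlapped (0.19, interval -0.17 to 0.55), the stromo-vascular groups were 10.3-fold apart, and the interaction was 3.55 ± 0.24 (adjusted p = 1.02e-06). Tagln, an actin-binding protein, differed by 0.33 in adipocytes and -1.89 in stromo-vascular cells (interaction 2.22, adjusted p = 0.000172). Calponin (Cnn1) had the largest interaction of all named genes, 7.14 ± 0.59 (adjusted p = 3.43e-06). It read 54.5, 40.3 and 234.5 in subcutaneous stromo-vascular cells, against 9408, 10096 and 9388 in intraabdominal ones, and 21.2 to 153.5 over the 6 adipocyte arrays. Its class stayed unresolved, because at this low signal the adipocyte interval reached beyond 2-fold. Mylk, the myosin light chain kinase, was lower in subcutaneous cells of both fractions by unequal amounts, 1.95-fold in adipocytes and 4.88-fold in stromo-vascular cells, the adipocyte one not called with the actin covariate (-0.81, adjusted p = 0.0567).

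The promoters of Cnn1 and Mylk are shown as those of called smooth muscle genes with a RefSeq entry. Contractile genes of this kind are known targets of serum response factor, which binds the CArG box.
Cnn1 promoter, chr9:22099003-22099302, plus strand: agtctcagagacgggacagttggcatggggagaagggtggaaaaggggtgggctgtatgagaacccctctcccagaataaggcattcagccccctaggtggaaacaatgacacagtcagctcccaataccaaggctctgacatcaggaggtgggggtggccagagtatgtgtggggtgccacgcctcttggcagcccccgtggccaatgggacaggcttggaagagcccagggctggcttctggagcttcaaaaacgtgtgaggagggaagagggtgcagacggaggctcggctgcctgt
Mylk promoter, chr16:34784700-34784999, plus strand: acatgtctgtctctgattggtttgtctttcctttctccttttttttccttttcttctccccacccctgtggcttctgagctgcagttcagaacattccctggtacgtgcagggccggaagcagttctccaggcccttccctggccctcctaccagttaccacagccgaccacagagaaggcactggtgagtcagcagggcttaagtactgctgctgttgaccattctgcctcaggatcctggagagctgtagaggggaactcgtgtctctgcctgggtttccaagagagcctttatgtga
These windows hold 0 matches to the CArG box, so no letters are in capitals. The box was searched by its consensus of 10 letters on both strands. It occurs in 1 of the 10 genes of the smooth muscle list with an entry and in 1.8% of the 5156 tested genes with one. The absence says only that these letters are not in this window.

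Of the 14 tested smooth muscle and pericyte markers, 9 were called positive for the interaction and 0 negative, where 4.2% of all genes were positive and 4.91% negative, with a median of 1.40, beside 0.03 over all genes. In stromo-vascular cells 10 were lower in subcutaneous cells and in adipocytes 1 was, beside 6.96% and 4.63% of all genes. Their summed signal was 65663 to 67187 in subcutaneous and 209805 to 248507 in intraabdominal stromo-vascular cells. The subcutaneous and intraabdominal adipocytes had 15330 to 19502 and 23537 to 25236. Mesothelial markers moved with them. Of these 5 of 7 tested were called positive, beside the same 4.2%, and 0 negative, with a median of 2.41 and a summed signal of 2000 to 2278 in subcutaneous and 8236 to 8572 in intraabdominal stromo-vascular cells. The adipocytes had 2108 to 3767 and 2052 to 2757. The transcription factor Wt1 read 163, 193 and 311 in subcutaneous stromo-vascular cells, against 1853, 1024 and 1311 in intraabdominal ones, with no called difference in adipocytes (0.13, interval -0.63 to 0.88). Its interaction was 2.10 with the actin covariate and not called (adjusted p = 0.0828), which left 3 mesothelial markers called. The part of cell composition in the other genes of the class was not tested.

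Complement C1q genes, which macrophages make, showed the same direction. C1qa read 2319, 1677 and 2280 in subcutaneous adipocytes, against 2334, 1241 and 1293 in intraabdominal adipocytes, groups that overlapped. It read 81.3, 95.1 and 100.4 in subcutaneous stromo-vascular cells, against 965, 979 and 722 in intraabdominal ones (interaction 3.20 ± 0.36, adjusted p = 5.59e-05). C1qb had 0.27 in adipocytes and -3.01 in stromo-vascular cells (3.28, adjusted p = 0.000152), which a second C1qb probe set did not show (1.23 and 0.34, interaction 0.88, adjusted p = 0.46). Of 18 tested macrophage markers, 7 were called positive (4.2% of all genes) and 1 negative (4.91% of all genes), with a median of 1.37. The negative member was Csf1r, the receptor of macrophage colony-stimulating factor (-0.11 and 0.74). The list's summed signal was 37949 to 46120 in subcutaneous and 76876 to 90885 in intraabdominal stromo-vascular cells. It was 27617 to 38788 and 20912 to 33809 in the subcutaneous and intraabdominal adipocytes.

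Igfbp3 and Igfbp2, which bind insulin-like growth factors, differed in stromo-vascular cells alone. Igfbp3 read 232, 314.5 and 229 in subcutaneous adipocytes, against 195, 357 and 283 in intraabdominal adipocytes. It read 4402, 3536 and 2743 in subcutaneous stromo-vascular cells, against 33538, 32888 and 42586 in intraabdominal ones (10.2-fold lower, interaction 3.28 ± 0.31, adjusted p = 1.11e-05). A dimmer Igfbp3 probe set was 7.26-fold lower there and unresolved, its adipocyte interval being wider. Igfbp2 was 17.7-fold lower in subcutaneous stromo-vascular cells (interaction 3.88, adjusted p = 0.000108) and likewise dim in adipocytes. Timp3, an inhibitor of matrix metalloproteinases held in the matrix, was read in all groups. It had 1751, 1977 and 2230 in subcutaneous stromo-vascular cells, against 22164, 20282 and 19199 in intraabdominal ones, and a difference of 0.14 (-0.39 to 0.67) in adipocytes (interaction 3.49, adjusted p = 1.85e-05).

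Secreted factors of adipocytes were among the genes higher in subcutaneous stromo-vascular cells. Chemerin (Rarres2) read 22312, 22395 and 29055 in subcutaneous adipocytes, against 18361, 17281 and 18341 in intraabdominal adipocytes. It read 31252, 33091 and 35158 in subcutaneous stromo-vascular cells, against 3092, 5325 and 3686 in intraabdominal ones. The adipocyte arrays were separate as well, yet that difference of 0.44 was not called (adjusted p = 0.122), and the interaction was -2.62 ± 0.24 (adjusted p = 7.15e-06). Retinol-binding protein 4 (Rbp4) had -0.15 in adipocytes and 1.99 in stromo-vascular cells (-2.15, adjusted p = 3.11e-06), at 5690, 5281 and 5521 in subcutaneous stromo-vascular cells against 1347, 1371 and 1337 in intraabdominal ones. Complement C2 differed by 0.00 in adipocytes and was 5.55-fold higher in subcutaneous stromo-vascular cells. Metallothionein 2 (Mt2), which binds zinc and copper, read 172531, 191551 and 176002 in subcutaneous adipocytes, against 179425, 224519 and 141452 in intraabdominal adipocytes. It read 96446, 94930 and 110756 in subcutaneous stromo-vascular cells, against 16866, 18996 and 14772 in intraabdominal ones (-2.57 ± 0.22, adjusted p = 4.39e-06).

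Lipid genes typed as adipocyte markers did not all go one way in stromo-vascular cells. Of 18 tested adipocyte markers 1 was called positive and 3 negative, beside 4.2% and 4.91% of all genes. The positive one was the fatty acid transporter Cd36, at 36.3, 40.0 and 57.2 in subcutaneous stromo-vascular cells against 212, 217 and 263 in intraabdominal ones, with a difference of -0.08 in adipocytes (interaction 1.60, adjusted p = 0.00197). The negative ones were Agt, lipoprotein lipase (Lpl) and the desaturase Scd1, of which other Scd1 probe sets were not called (-0.33 each, adjusted p = 0.405 and 0.824). Lpl had -0.36 and 0.72 (-1.08, adjusted p = 0.00501), and a second Lpl probe set met the reversed criterion with -0.54 and 0.95. The endothelial junction genes Cdh5 (interaction -1.90, adjusted p = 0.0035) and Cldn5 (-1.77, adjusted p = 0.0081) were higher in subcutaneous stromo-vascular cells. With Ramp2 they were the 3 called of 14 tested endothelial markers, none of them positive, beside 4.91% of all genes negative and 4.2% positive. In stromo-vascular cells 6 members were higher and 1 lower in subcutaneous cells, beside 6.91% and 6.96% of all genes, with a median of 0.28. The list's summed signal was 12846 to 14669 in subcutaneous and 17163 to 24083 in intraabdominal stromo-vascular cells.

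Genes with the same direction in both fractions and unequal size numbered 20. Tcf21, a transcription factor of visceral mesenchyme, read 174, 87.4 and 57.9 in subcutaneous adipocytes, against 227, 438 and 294 in intraabdominal adipocytes. It read 49.7, 50.2 and 50.7 in subcutaneous stromo-vascular cells, against 3320, 3587 and 3502 in intraabdominal ones. The depot difference was 2.52-fold in adipocytes and 38.8-fold in stromo-vascular cells (interaction 3.95 ± 0.47, adjusted p = 8.37e-05). The chemokine Ccl8 ran the other way, 3.42-fold higher in subcutaneous adipocytes and 50.2-fold higher in subcutaneous stromo-vascular cells, where it read 32576, 33025 and 33745 against 586, 731 and 556 (interaction -3.88, adjusted p = 3.95e-05). Fhl1, a LIM-domain protein of muscle, read 13137, 11394 and 11605 in subcutaneous adipocytes, against 15462, 17810 and 14911 in intraabdominal adipocytes, and was 8.54-fold lower in subcutaneous stromo-vascular cells (2.68, adjusted p = 6.02e-07). Its adipocyte call was lost with the actin covariate (-0.52, adjusted p = 0.226), and a dimmer probe set was called in stromo-vascular cells alone.

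The steroid- and retinoid-oxidising cytochrome Cyp1b1 had a larger depot difference in adipocytes. It read 184, 83.6 and 85.9 in subcutaneous adipocytes, against 1001, 1712 and 1156 in intraabdominal adipocytes, and 16312, 16006 and 15332 in subcutaneous stromo-vascular cells, against 28952, 29663 and 32448 in intraabdominal ones. The folds were 8.55 in adipocytes and 1.91 in stromo-vascular cells (interaction -2.16 ± 0.31, adjusted p = 0.000467). Socs3, a feedback inhibitor of cytokine signalling, was also more different in adipocytes, at 2.28 against 1.21. The call for the difference of Tcf21 in adipocytes was lost without intraabdominal adipocyte replicate 2 (adjusted p = 0.109).

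Positional genes were mostly positive for the interaction where called. Of 21 Hox genes tested, 4 were called positive (4.2% of all genes) and 0 negative, with a median of 0.52. Hoxc9 was higher in subcutaneous adipocytes, at 1295, 1203 and 1070 against 669, 583 and 772, with a stromo-vascular difference of -0.39 that was not called (interaction 1.18, adjusted p = 0.0139). Hoxa5 was lower in subcutaneous cells of both fractions, by 1.90-fold in adipocytes and 6.04-fold in stromo-vascular cells (1.67, adjusted p = 0.00384). Under the actin covariate 1 Hox gene was called. Hoxc9 then had an interaction of 1.08 (adjusted p = 0.11) and an adipocyte difference of 0.67 (adjusted p = 0.385), and Hoxa5 had 1.43 (adjusted p = 0.0673) and -1.20 (adjusted p = 0.145). The calls of Hoxc8 (0.88, adjusted p = 0.0351) and Hoxa7 (1.52, adjusted p = 0.0475) were lost under most of the single-array omissions, and the actin covariate took the Hoxa7 call (1.42, adjusted p = 0.226) and the Hoxc8 adipocyte call (-0.32, adjusted p = 0.695). Of 22 other patterning genes 6 were positive and 1 negative, beside the same 4.2% and 4.91%, and with the actin covariate 3 and 1. That covariate took the positive calls of Scx (2.14, adjusted p = 0.241), Gata6 (1.06, adjusted p = 0.103) and Nr2f2 (1.41, adjusted p = 0.142). The call of Scx was lost in 13 of 23 other settings. The negative one was the homeobox gene Irx3, at 2072, 1906 and 1982 in subcutaneous stromo-vascular cells against 413, 415 and 418 in intraabdominal ones, with a difference of -0.02 in adipocytes (-2.17, adjusted p = 0.000322).

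Cytokines and chemokines leaned the other way, with 14 of 26 tested members called negative (background 4.91%) and 0 positive, and a median interaction of -1.12. Beside Lcn2 and Ccl8, they included the granulocyte growth factor Csf3, which read 2540, 2535 and 1842 in subcutaneous adipocytes, against 2352, 1897 and 2050 in intraabdominal adipocytes, and 2517, 3179 and 2916 in subcutaneous stromo-vascular cells, against 865, 488 and 474 in intraabdominal ones. Saa3 had -1.46 in adipocytes and 0.74 in stromo-vascular cells (interaction -2.21, adjusted p = 0.000908), the second of which missed the threshold (adjusted p = 0.0606), as did the first with the actin covariate (-1.70, adjusted p = 0.0692). The neutrophil chemokines Cxcl1 (-0.02 and 0.99), Cxcl2 (-0.37 and 1.08) and Cxcl5 (-1.18 and 1.53) were called for the interaction as well, given as the depot differences in adipocytes and stromo-vascular cells. In stromo-vascular cells 10 members were higher and 1 lower in subcutaneous cells, whereas in adipocytes 2 were higher and 3 lower. Over all genes these shares were 6.91% and 6.96% in stromo-vascular cells, and 3.67% and 4.63% in adipocytes. The negative calls were 9 of the list without subcutaneous adipocyte replicate 2, intraabdominal adipocyte replicate 1, subcutaneous stromo-vascular replicate 2 or intraabdominal stromo-vascular replicate 3, and 6 with the actin covariate.

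Genes of fatty acid oxidation were called positive for 8 of 19 tested members (background 4.2%) and negative for 1, with a median of 0.55. Hadhb, a subunit of the mitochondrial trifunctional protein, read 28660, 27263 and 36515 in subcutaneous adipocytes, against 18409, 18042 and 17349 in intraabdominal adipocytes, with -0.35 in stromo-vascular cells (interaction 1.11, adjusted p = 0.0012). The electron transfer flavoprotein subunit Etfb differed by 0.56 and -0.95 (1.50, adjusted p = 0.00195), and its dimmer probe set by less (interaction 0.23, adjusted p = 0.826). The negative member was the enoyl-CoA hydratase Echs1 (-0.32 and 1.00), whose interaction was -0.96 with the actin covariate (adjusted p = 0.0677). The positive calls numbered 4 with median centring, with the actin covariate, without the intensity trend and without 4 single arrays: intraabdominal adipocyte replicate 2, subcutaneous stromo-vascular replicates 1 and 3 and intraabdominal stromo-vascular replicate 1. Cell cycle genes were positive for 5 of 28 (4.2% of all genes) and negative for 0, with a median of 0.48, and the count was 2 without subcutaneous stromo-vascular replicate 1 or 2 or intraabdominal stromo-vascular replicate 2 or 3, and with quantile normalization.

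Matrix genes had calls in both directions, 6 positive and 10 negative of 35 tested collagens and matrix proteins, beside 4.2% and 4.91% of all genes, with a median of -0.20. These counts were 4 and 7 with the actin covariate. Those positive through adipocytes were Col1a1, Col1a2 and periostin (Postn, 0.93 and -0.05). Those negative through stromo-vascular cells included Col6a3, laminin alpha 4 (Lama4, -0.20 and 0.98) and dermatopontin (Dpt, 0.58 and 3.19, interaction -2.61, adjusted p = 4.4e-05). Lumican (Lum) was positive, at 0.50 in adipocytes and -1.25 in stromo-vascular cells. Signalling genes of the Wnt, BMP and TGF beta families were positive for 5 of 35 and negative for 2, a negative share near the 4.91% of all genes, and with the actin covariate for 2 and 2. Tgfb1 read 137, 177 and 135 in subcutaneous adipocytes, against 1272, 1205 and 414.5 in intraabdominal adipocytes, and 1550, 1419 and 1509 in subcutaneous stromo-vascular cells, against 577, 851 and 1106 in intraabdominal ones. Its interaction was -3.10 ± 0.50 (adjusted p = 0.00115), but the stromo-vascular difference of 0.84 was not called although the arrays were separate. Its adipocyte difference was smaller with the actin covariate and not called (adjusted p = 0.137). Tgfb3 was lower in subcutaneous cells of both fractions, by 1.82-fold and 6.01-fold, and with that covariate neither its interaction (1.39, adjusted p = 0.0801) nor its adipocyte difference (-1.25, adjusted p = 0.137) was called. Immediate early and dissociation stress genes, which respond to tissue digestion, were positive for 4 of 32 and negative for 6, beside 4.2% and 4.91% of all genes, and with the actin covariate for 2 and 6.

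**Figure D4:**
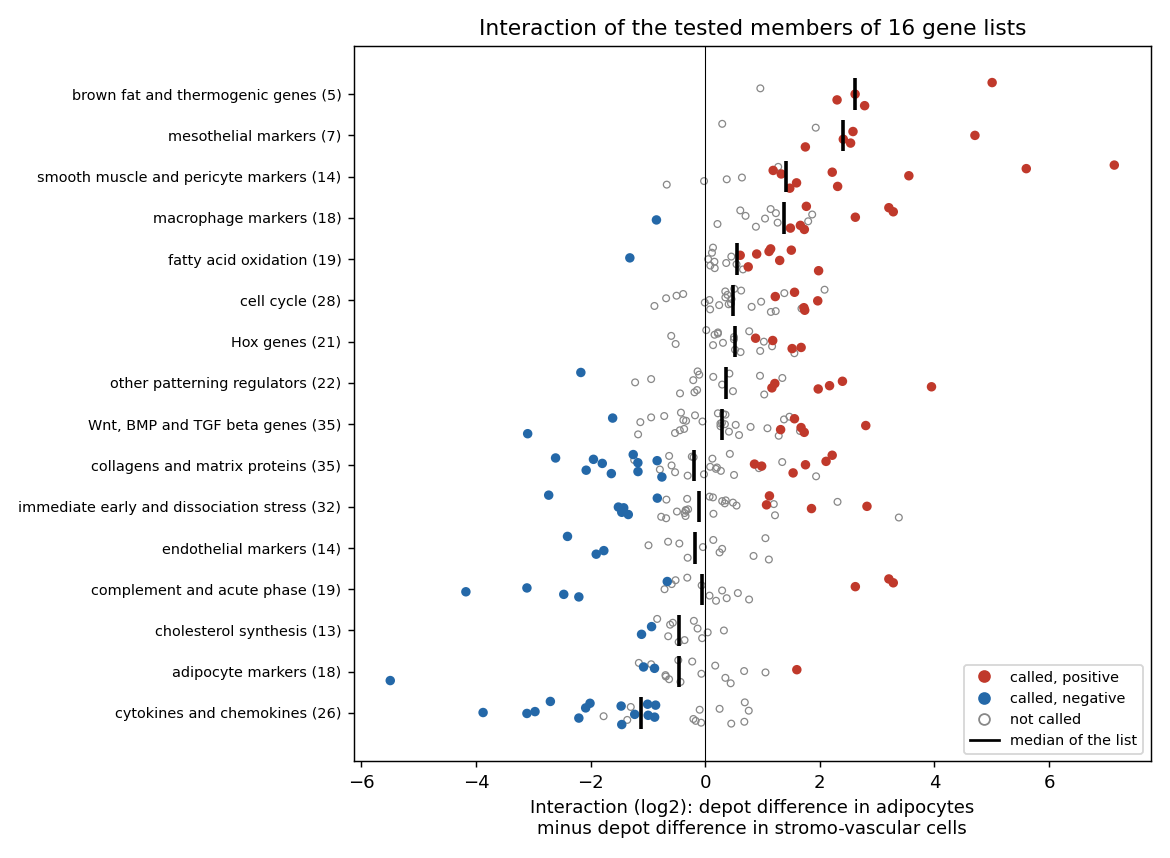
Each row is a gene list and each point the log2 interaction of 1 tested member, filled where it was called, with a bar at the list's median. Smooth muscle, mesothelial, macrophage and brown fat genes lie mostly to the right of 0, and cytokines and chemokines to the left.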

How the data were processed

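RNA of 12 samples was measured on Affymetrix arrays, 1 array per sample. The deposited values are intensities on a linear scale that the authors made with MAS5, per the submitters' processing notes. Not given in the sources used here were the version of MAS5 and its detection calls. Of 12488 probe sets 66 controls were set aside, and no columns were left unused. No arrays had identical values.

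Values were taken as log2(value + 40.2), the pseudocount being the 10th percentile of all values, so that fold changes of dim genes are understated. By mean log2 value, the dimmest 30% of probe sets were left out. A model with 4 group means was fitted with limma 3.58.1 (R 4.3.3; eBayes with an intensity trend; 8 residual degrees of freedom, median prior 6.17), with Benjamini-Hochberg adjustment over 8695 probe sets and calls at an adjusted p under 0.05. The number of arrays limits the precision. Each probe set had a common spread for the 4 groups. The pooled standard deviation within a group was 0.49 in subcutaneous and 0.42 in intraabdominal adipocytes. It was 0.32 and 0.35 in the stromo-vascular cells. Standard errors may thus be too small for adipocytes and too large for stromo-vascular cells, which bears on the classes.

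Among the called interactions, reversed means that both depot differences were called with opposite signs. One fraction only means that the other was not called and had a 95% interval within 2-fold (1 on the log2 scale). That other fraction was termed read or dim by the median of all values, 497. The platform annotation gave 1 symbol for 10833 probe sets, several for 396 and none for 1193. Of those with 1 symbol 10817 matched a RefSeq gene record and 0 symbols were updated. The brightest probe set stands for each of 6436 tested genes of 8251.

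Genes were named from those with separate arrays and a group mean of at least the median, ranked by size of interaction: up to 8 reversed, 3 or 4 per direction of the other classes, up to 4 called members of each gene list, and every called Hox or patterning gene. This gave 118 genes, of which the text takes a part. The members, lists and rules were chosen with earlier results of these data known. The fits were tested on simulated data. The alternatives were other pseudocounts, filters and scalings, array weights, no trend, replicate blocks, the actin ratio as a covariate and leaving out each array.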

Additional observations from a re-analysis of the deposited data

Results flagged for a closer look

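Effects of the same depot contrast differed between the fractions by the interaction test itself for 733 probe sets, and for 66 of these the depot differences were called in both fractions with opposite signs. The named genes of the reversed class carry these differences. Where subcutaneous was lower in adipocytes and higher in stromo-vascular cells, the log2 interaction was -5.50 for Agt, -3.11 for Lcn2, -2.83 for Lbp, -2.73 for Fosl1, -2.64 for Cdo1, -2.62 for Il1r1, -2.61 for Acta1 and -2.59 for Apcdd1. Where subcutaneous was higher in adipocytes and lower in stromo-vascular cells, it was 3.70 for Dpysl3, 3.41 for Bdnf, 2.57 for Slc9a3r1, 2.47 for Pcsk6, 2.24 for Cdh2, 1.97 for Gata2, 1.95 for Tob1 and 1.93 for Folr2. Groups of 3 arrays were too small to look for single outlying arrays.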

How the results depend on the processing

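No named gene changed the sign of its interaction. Over the 118 named genes and the alternative settings, 1232 of 1280 interactions kept direction and call and 48 lost the call, with 92 genes never losing it. Over the omissions of single arrays 1349 of 1413 kept both and 64 lost the call, with 108 genes never losing it. Counts moved more. The interaction was called for 733 probe sets and 403 with the actin ratio as a covariate, where the adipocyte depot difference had 97 calls, the reversed class 10 (9 of the 66), adipocytes only 27, stromo-vascular cells only 118 and same direction 9. The same direction class of 31 was 18 with arrays centred on their medians and 19 without the intensity trend. Array quality weights gave 1952 stromo-vascular calls, against 1125, and 490 adipocyte calls, against 707. With single arrays left out, the interaction was called for 538 (without subcutaneous stromo-vascular replicate 3) to 820 (without intraabdominal adipocyte replicate 3), the adipocyte difference for 365 (without intraabdominal adipocyte replicate 2) to 949 (without intraabdominal adipocyte replicate 3), and the stromo-vascular difference for 765 to 1273. The classes held 34 to 83 (reversed), 75 to 204 (adipocytes only), 241 to 348 (stromo-vascular cells only), 18 to 28 (same direction) and 137 to 212 (unresolved). These fits had fewer samples, but some counts rose while others fell, and the cause was not tested. Deviations of arrays with the same replicate number had correlations of -0.086 to 0.111, and those with different numbers -0.171 to 0.117. Whether the numbers pair samples cannot be told from this, since a small pool effect would look the same. With the replicate number as a fixed block 645 probe sets were called and 56 were reversed, 55 of them among the original 66, and with a random block 689 (consensus correlation -0.0446). Low signal limits dim genes, whose intervals reached beyond 2-fold.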

Other observations

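Several lists had no interaction call by limma, where 9.11% of all genes had one. These were 0 of 6 tested lymphocyte markers, 0 of 8 MHC class II genes, 0 of 3 epididymis and testis markers and 0 of 6 keratinocyte and skin markers. At an unadjusted p under 0.05 the lymphocyte list had 1 member and the others 0. The depot difference within a fraction was called for 1 lymphocyte marker in stromo-vascular cells and for no other member of these lists. The median stromo-vascular difference of the lymphocyte list was 0.09, so its summed signal does not describe the typical member. The summed signal of the lymphocyte markers was 2887 to 5956 in subcutaneous and 1585 to 2463 in intraabdominal adipocytes, and 36202 to 38105 in subcutaneous and 8137 to 8521 in intraabdominal stromo-vascular cells. That of the MHC class II genes was 9428 to 18732 and 10340 to 24280 in the adipocytes, and 3961 to 4766 and 2897 to 3951 in the stromo-vascular cells, overlapping between depots in the adipocytes and not in the stromo-vascular cells. The counts that follow stand beside 4.2% of all genes called positive for the interaction and 4.91% called negative. Cholesterol synthesis genes had 2 negative and 0 positive calls of 13, and retinoid genes 2 of each of 8. Fatty acid and triglyceride synthesis had 2 positive and 3 negative of 16, and matrix proteases and their inhibitors 3 of each of 15. Complement and acute phase genes had 3 positive and 5 negative of 19, the insulin, IGF and steroid axis 4 positive and 2 negative of 22, preadipocyte and fibroblast markers 3 of each of 18, mammary epithelial markers 1 positive of 3, and erythroid and plasma cell markers 1 negative of 5.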
